A study of Mus musculus with 6 samples.

Results

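Autophagy genes and the MiT/TFE transcription factors that control many of them were followed as a list of 45 genes, chosen by known function from 38481 mouse genes with deposited rows, with the deposited transcript counts summed per gene. The RNA came from Hepa1-6, an established hepatoma line of the mouse, 3 days after transfection of siRNA with RNAiMAX. In 3 libraries the siRNA was directed against Crebl2, which encodes a bZIP protein akin to CREB, and in 3 libraries (Luc siRNA) against Renilla luciferase, which mouse cells lack. Both groups were transfected and grew in medium holding 10% serum and 4.5 g/L glucose, and no starvation or lysosome inhibitor is named in the labels. Whether each library is a culture of its own is not stated in the labels, and p-values therefore cover the spread among these libraries alone, which may be technical. All values are RNA levels, and autophagic flux was not measured.

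Autophagy encloses cytoplasm in a double membrane and delivers it to the lysosome. The Ulk kinase complex starts the process, a class III phosphatidylinositol 3-kinase complex built on Becn1 marks the site, Wipi proteins read that mark, and Atg2 and Atg9 proteins bring lipid. A ubiquitin-like conjugation system then attaches Atg8 proteins (the LC3 and GABARAP families) to the membrane, receptors link cargo to them, and Stx17 and the HOPS tether fuse the finished autophagosome with the lysosome. Tfeb, Tfe3 and Mitf switch on autophagy and lysosome genes through E-box sites, and the folliculin complex (Flcn with Fnip1 or Fnip2) helps mTORC1 keep them out of the nucleus in fed cells. In liver, autophagy supplies amino acids in fasting and breaks down lipid droplets.

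Library totals ran from 27082572 to 27710914 counts with Crebl2 siRNA and from 27385328 to 29158489 with Luc siRNA. Crebl2 itself had 813, 826 and 896 counts with Crebl2 siRNA, against 3248, 3162 and 3041 with Luc siRNA, which left 26.9% of its Luc siRNA level (log2 fold change -1.90, SE 0.0582, edgeR adjusted p = 2.83e-12). Replicate 2 of the Crebl2 siRNA libraries stood apart in its mitochondrial RNA, which took 0.859% of its counts, against 2.09 and 2.23% in the other Crebl2 siRNA libraries and 2.31 to 2.52% with Luc siRNA. Calls of members lost without it are given with the results. Of 13 hepatocyte markers, albumin averaged 540 ± 29.5 CPM with Crebl2 siRNA and 581 ± 29.2 CPM with Luc siRNA (CPM, counts scaled to a common library size by TMM; SD, n = 3 each), and alpha-fetoprotein (Afp) 357 ± 5.29 CPM with Crebl2 siRNA and 278 ± 1.21 CPM with Luc siRNA. Apoa1, Ttr, Apoh and Apob were below 1 CPM although each has 1035 to 13934 countable bases (bases belonging to 1 transcript row only), whereas Hnf4a and Apoa2, at 0 counts, have 6 and 29. Macrophage markers summed to 1.41 to 1.83 CPM with Crebl2 siRNA and 1.96 to 2.40 CPM with Luc siRNA, and Ptprc, the pan-leukocyte marker among them, was at 0. Stellate and fibroblast markers, mostly Des, summed to 66.1 to 74.5 CPM with Crebl2 siRNA and 53.7 to 62.5 CPM with Luc siRNA, with Col3a1 and Pdgfrb at 0. Endothelial and muscle markers summed to at most 0.324 and 0.752 CPM with Crebl2 siRNA and to at most 0.143 CPM each with Luc siRNA. The part of such cells in the results was not tested. In a bulk culture, fewer cells of a type and less RNA per cell cannot be told apart.

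Several core genes of autophagosome formation were lower after Crebl2 knockdown. The MiT/TFE factors and cargo receptors among the 45 genes that could be tested were not called, but this shows no difference between roles. Tfeb and Mitf rested on 69 and 81 counts, and the receptor Sqstm1 narrowly missed a call (log2 fold change -0.16, edgeR adjusted p = 0.0589). The receptors Calcoco1 and Bnip3, outside the 45 genes, were lowered. Of the 45 genes, 40 had enough counts to be tested, and 14 of those passed an edgeR adjusted p of 0.05, 12 lowered and 2 raised. The 35.0% called compares with 38.9% of all 11616 genes tested, a share close to that background. The split by direction was uneven, with 12 of 40 lowered against 20.1% of all genes tested, and 2 of 40 raised against 18.8%. The median log2 fold change over the 40 was -0.11, against 0.01 over all genes. With library size alone as the scaling, 9 were lowered and 4 raised and the median was -0.06. In 15 of the 40 every Crebl2 siRNA library lay below every Luc siRNA library, and in 4 every one lay above, against 24.9% and 23.8% of all genes tested.

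**Figure D1:**
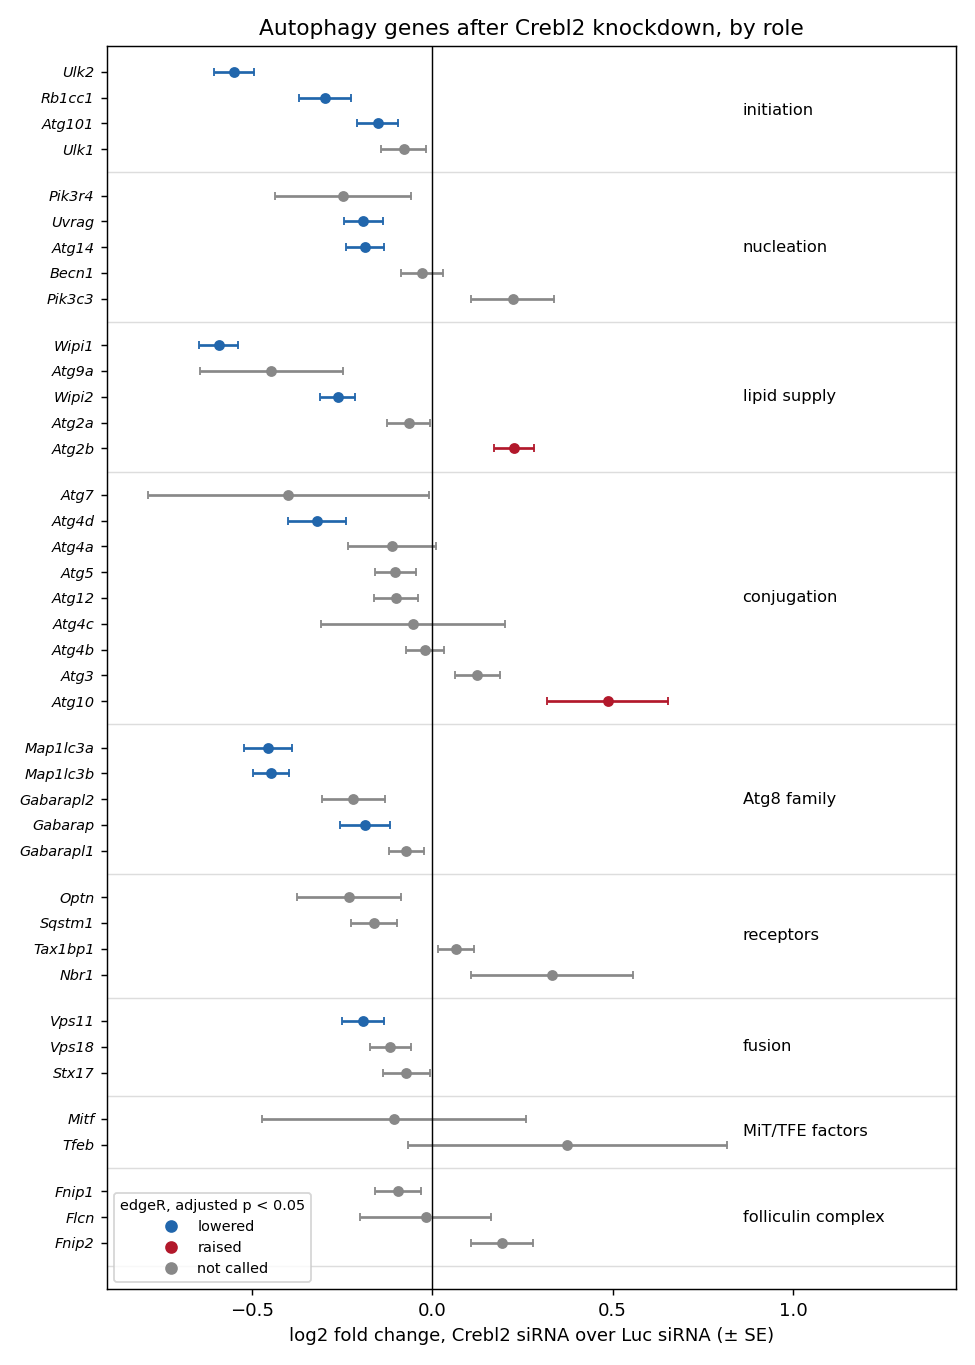
Log2 fold change (Crebl2 siRNA over Luc siRNA) of the 40 autophagy genes tested, by role, with bars for 1 SE and colour for the edgeR call at an adjusted p of 0.05 over all 11616 genes. Wipi1 at -0.59 and Ulk2 at -0.55 lie farthest left, Atg10 at 0.49 lies farthest right, and both MiT/TFE factors have wide bars that cross 0.

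The changes were small. The lowest log2 fold change was -0.59, 1 called gene, Wipi1, changed by at least 1.5-fold, and 7 of the 14 changed by at least 1.2-fold. The median size of a called change was 0.28 on the log2 scale, against 0.38 over all called genes. Ulk2, Wipi1, Map1lc3a and Map1lc3b kept their call in all 15 alternative settings, including a test that asks for more than a 1.2-fold change. Without Crebl2 siRNA replicate 2, 9 genes were called, 7 lowered and 2 raised, and Atg101, Atg14, Uvrag, Gabarap and Vps11 lost their call. A 3-against-3 exact permutation test of CPM cannot go below p = 0.1, and 19 of the 40 genes reached that value. They are the 15 genes with every Crebl2 siRNA library below and the 4 with every one above. Among all genes tested, 24.9% lay below and 23.8% above in that way, so the 19 do not set the members apart.

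**Figure D2:**
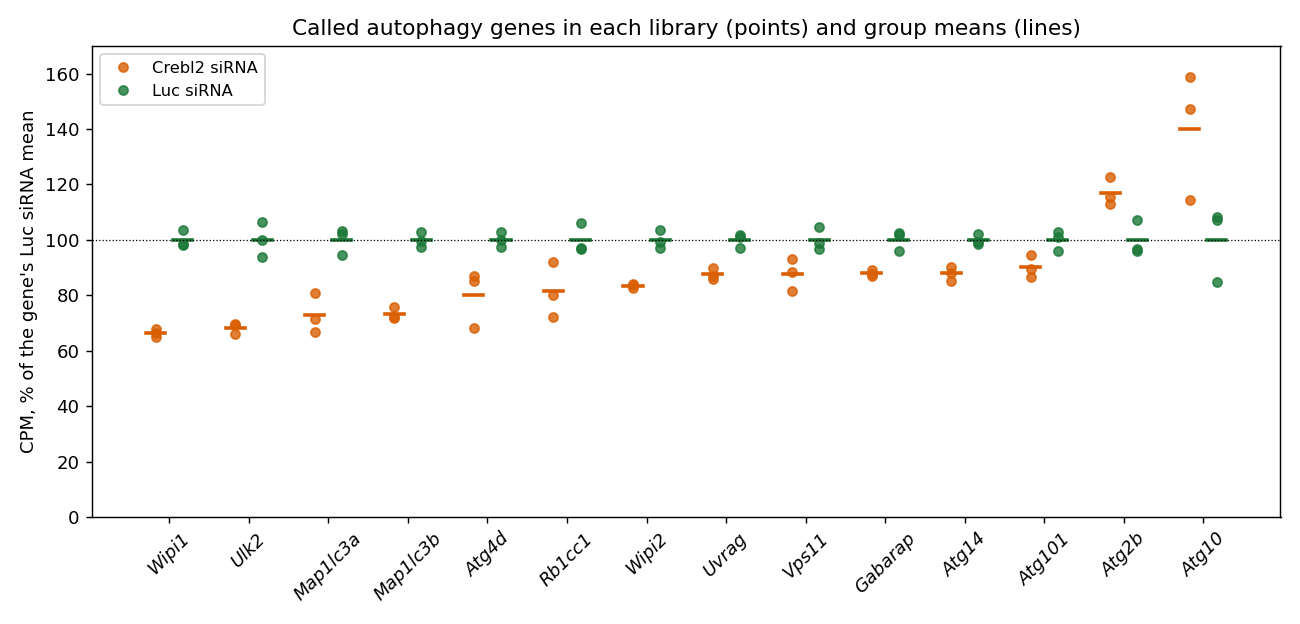
CPM of the 14 called genes in each library as a percent of the gene's Luc siRNA mean, with points for libraries and lines for the means of 3. The Crebl2 siRNA points of the 12 lowered genes all lie below their Luc siRNA points, and those of Atg2b and Atg10 all lie above.

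Promoter sequences were available from RefSeq (GRCm38.p6) for 37 of the 45 genes, covering 250 bases before to 50 bases after an annotated start, in 46 windows. Those of the 3 lowered genes with the smallest p are printed first, since a promoter is where a factor of the CREB or MiT/TFE type would be looked for. Capitals mark the short CREB-type core TGACG, and no E-box CACGTG occurs in these 3.
Wipi1 promoter (chr11:109611340-109611639, minus strand): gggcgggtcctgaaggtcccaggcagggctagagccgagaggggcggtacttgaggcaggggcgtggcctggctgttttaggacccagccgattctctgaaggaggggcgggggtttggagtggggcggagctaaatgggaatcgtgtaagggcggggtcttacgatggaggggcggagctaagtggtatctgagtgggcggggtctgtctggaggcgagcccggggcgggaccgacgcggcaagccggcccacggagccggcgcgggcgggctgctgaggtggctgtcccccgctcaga
Ulk2 promoter (chr11:61855043-61855342, minus strand): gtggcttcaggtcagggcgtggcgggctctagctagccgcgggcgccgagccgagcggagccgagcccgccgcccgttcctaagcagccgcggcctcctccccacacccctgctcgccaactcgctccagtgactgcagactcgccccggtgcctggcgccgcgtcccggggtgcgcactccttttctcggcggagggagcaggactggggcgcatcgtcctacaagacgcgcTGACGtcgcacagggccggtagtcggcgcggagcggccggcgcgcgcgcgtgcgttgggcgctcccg
Map1lc3b promoter (chr8:121590188-121590487, plus strand): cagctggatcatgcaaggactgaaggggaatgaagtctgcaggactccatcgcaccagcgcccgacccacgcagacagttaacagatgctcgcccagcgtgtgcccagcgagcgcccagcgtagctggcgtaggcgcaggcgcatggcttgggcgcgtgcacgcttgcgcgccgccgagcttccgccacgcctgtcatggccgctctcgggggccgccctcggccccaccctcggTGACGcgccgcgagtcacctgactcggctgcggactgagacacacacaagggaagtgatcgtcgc

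The Ulk2 and Map1lc3b windows each hold a TGACG and the Wipi1 window holds none. Searched on both strands, TGACG occurred in 37.0% of the members' windows, against 20.8% of all 32851 promoter windows of the same length. The full CRE TGACGTCA, which contains that core, occurred in 6.52% (Atg5, Flcn and Mitf), against 1.79%. None of these 3 genes was called by edgeR (adjusted p = 0.174, 0.953 and 0.85) or by DESeq2 or limma-voom, and none had an unadjusted p under 0.05 in any of them. By call, TGACG was present in 2 of 9 lowered genes with a window, in 2 of 2 raised genes, Atg2b and Atg10, and in 11 of 23 genes that were not called. The background windows belong to 27025 genes, whether or not they were tested here, and were not matched to the members in base composition. The higher shares in the members therefore do not show an enrichment.

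The E-box CACGTG, the core of the CLEAR element read by Tfeb and Tfe3, occurred in 10.9% of the members' windows, against 7.15% of all windows. Its longer form TCACGTG, as found in CLEAR elements, occurred in 8.7%, against 3.77%. The background is the same unmatched set of windows, so these shares show no enrichment either. The 5 genes with an E-box are shown with 30 bases on each side of the first match. The letters alone do not tell which factor would bind, and Atg5 lacks the longer form. Capitals mark CACGTG and TGACGTCA.
Atg14 (chr14:47568400-47568465, minus strand): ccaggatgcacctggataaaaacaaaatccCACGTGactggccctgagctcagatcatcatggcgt
Atg3 (chr16:45158705-45158770, plus strand): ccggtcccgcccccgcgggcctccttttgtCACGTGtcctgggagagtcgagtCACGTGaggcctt
Atg5 (chr10:44268295-44268360, plus strand): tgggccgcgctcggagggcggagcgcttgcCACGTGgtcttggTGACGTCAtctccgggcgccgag
Atg7 (chr6:114670934-114670999, plus strand): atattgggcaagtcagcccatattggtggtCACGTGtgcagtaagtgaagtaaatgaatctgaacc
Fnip1 (chr11:54438074-54438139, plus strand): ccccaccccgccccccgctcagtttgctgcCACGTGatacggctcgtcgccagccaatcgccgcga

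Of these 5 genes, Atg14 was lowered and the other 4 were not called. The first match starts 1 base before the RefSeq start used for the window in Atg14, 14 in Atg5, 75 in Fnip1, 94 in Atg3 and 132 in Atg7. The Atg3 window holds a second CACGTG, and the Atg5 window a full CRE beside its E-box. A match is a description of letters, binding was not measured, and the annotated start may not be the one used in Hepa1-6 cells. The RefSeq starts can also differ from the gene starts of GENCODE M21, the annotation used for the counts. The printed windows of Wipi1, Atg14 and Atg7 lie inside the GENCODE bounds of their genes, downstream of the outermost start.

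Of 4 tested genes of the Ulk initiation complex, 3 were lowered and 0 were raised by edgeR, with 0 higher at an unadjusted p under 0.05, beside 20.1% lowered and 18.8% raised among all genes tested. DESeq2 called 2 of them lowered and limma-voom 3. Ulk2, one of the Ulk kinases, had 95.2, 90.4 and 95.4 CPM with Crebl2 siRNA, against 145.8, 128.5 and 136.8 CPM with Luc siRNA. Every Crebl2 siRNA library lay below every Luc siRNA library by a wide margin (log2 fold change -0.55, SE 0.0564, edgeR adjusted p = 1.17e-06). Its paralog Ulk1, the kinase most often linked to starvation-induced autophagy, had 35.1, 34.1 and 36.4 CPM with Crebl2 siRNA and 36.9, 36.0 and 38.6 CPM with Luc siRNA. Those ranges overlap (log2 fold change -0.08, SE 0.0624, edgeR adjusted p = 0.344). Within libraries, the log2 ratio of Ulk2 to Ulk1 counts was 1.41 ± 0.025 with Crebl2 siRNA and 1.88 ± 0.087 with Luc siRNA (SD, n = 3 each), a difference of -0.47 with groups that do not overlap and an exact permutation p of 0.1.

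Rb1cc1, the large scaffold also known as Fip200, was lower but variable. It had 100.7, 111.8 and 128.6 CPM with Crebl2 siRNA, against 148.1, 135.7 and 135.3 CPM with Luc siRNA (log2 fold change -0.30, SE 0.0727, edgeR adjusted p = 0.00385). Crebl2 siRNA replicate 3 came close to the lowest Luc siRNA library. Atg101, which stabilises Atg13, had 68.3, 64.6 and 62.5 CPM with Crebl2 siRNA and 74.3, 73.0 and 69.5 CPM with Luc siRNA (log2 fold change -0.15, SE 0.0567, edgeR adjusted p = 0.0458). That narrow gap was called in 5 of 15 alternative settings, with adjusted p from 0.0196 to 1, and not without Crebl2 siRNA replicate 2 (0.153). Atg13, the adaptor of the complex, had 17 counts with Crebl2 siRNA and 9 with Luc siRNA over 3 libraries each and could not be tested.

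In the phosphatidylinositol 3-kinase complexes, the interchangeable Becn1 partners Atg14 and Uvrag were lowered, and the 3 tested shared subunits were not called. Of 5 tested genes, 2 were lowered and 0 raised, beside 20.1% and 18.8% of all genes tested. The 40.0% called is close to the 38.9% of all genes tested. The uncalled Pik3r4, on few counts, had a lower log2 fold change than either partner (-0.25, SE 0.189). Calls alone therefore do not set the partners apart from the shared subunits. Atg14, which directs the kinase to autophagosome formation, had 66.5, 64.3 and 68.1 CPM with Crebl2 siRNA, against 77.1, 74.8 and 74.4 CPM with Luc siRNA (log2 fold change -0.19, SE 0.0533, edgeR adjusted p = 0.0108). Its promoter window is the one shown with an E-box across the RefSeq start. Uvrag, which directs the same kinase to endosomes and late autophagosomes, had 62.1, 59.4 and 60.0 CPM with Crebl2 siRNA and 70.2, 69.7 and 67.1 CPM with Luc siRNA (log2 fold change -0.19, SE 0.0539, edgeR adjusted p = 0.00996). Both sets of libraries were tight and separate. Without Crebl2 siRNA replicate 2 the adjusted p was 0.0818 for Atg14 (alternatives from 0.00463 to 1) and 0.0657 for Uvrag (alternatives from 0.00793 to 1).

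Becn1, the shared core subunit, had 45.6, 46.6 and 48.0 CPM with Crebl2 siRNA and 46.6, 49.7 and 46.8 CPM with Luc siRNA, ranges that overlap (log2 fold change -0.03, SE 0.0583, edgeR adjusted p = 0.732). Its direction flipped to 0.02 with library size alone as the scaling. Pik3c3, the lipid kinase itself, had 7.45, 7.64 and 7.86 CPM with Crebl2 siRNA and 7.47, 6.45 and 5.72 CPM with Luc siRNA, so the ranges overlap (log2 fold change 0.22, SE 0.115, edgeR adjusted p = 0.139). Without Luc siRNA replicate 1 the Pik3c3 difference was called, at 0.33 on the log2 scale with an adjusted p of 0.0481 (alternatives from 0.0481 to 0.843). Pik3r4, the regulatory subunit, rested on 143 counts with Crebl2 siRNA and 170 with Luc siRNA (log2 fold change -0.25, SE 0.189, edgeR adjusted p = 0.328). Ambra1, a regulator of Becn1, had no counts in any library, with 2 countable bases in its main row.

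Among genes for recognising the lipid mark and supplying membrane, both Wipi genes were lowered and Atg2b was raised. Wipi1, a propeller protein that binds phosphatidylinositol 3-phosphate on the forming membrane, had 53.0, 55.4 and 54.4 CPM with Crebl2 siRNA, against 84.7, 80.5 and 80.1 CPM with Luc siRNA. It had the largest drop and the smallest p of all 40 genes, to 66.4% of the Luc siRNA level (log2 fold change -0.59, SE 0.0543, edgeR adjusted p = 3.29e-07). The drop was present in both well-counted transcript rows, at -0.61 in Wipi1-201 and -0.57 in Wipi1-202 on the log2 scale. Wipi2, which recruits Atg16l1 to the mark, had 157.9, 156.0 and 158.7 CPM with Crebl2 siRNA and 187.1, 195.7 and 183.4 CPM with Luc siRNA (log2 fold change -0.26, SE 0.0485, edgeR adjusted p = 0.000439). The log2 ratio of Wipi1 to Wipi2 counts was -1.54 ± 0.041 with Crebl2 siRNA and -1.21 ± 0.07 with Luc siRNA, with no overlap (SD, n = 3 each; exact permutation p = 0.1).

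Atg2a and Atg2b are paralogous bridge proteins that carry lipid into the growing membrane, and the first was not called while the second was raised. Atg2b had 234.6, 255.2 and 240.3 CPM with Crebl2 siRNA, against 223.0, 199.5 and 201.3 CPM with Luc siRNA (log2 fold change 0.23, SE 0.0552, edgeR adjusted p = 0.00365). Atg2a had 231.1, 230.2 and 195.4 CPM with Crebl2 siRNA and 230.1, 225.5 and 231.1 CPM with Luc siRNA, which overlap (log2 fold change -0.06, SE 0.0602, edgeR adjusted p = 0.427). Only replicate 3 of the Crebl2 siRNA libraries was low for Atg2a, and without it the log2 fold change was 0.01. The Atg2b to Atg2a log2 ratio was 0.16 ± 0.139 with Crebl2 siRNA and -0.14 ± 0.083 with Luc siRNA (SD, n = 3 each), with no overlap and an exact permutation p of 0.1.

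Atg9a, the membrane protein of the vesicles that seed autophagosomes, had 140 counts with Crebl2 siRNA and 191 with Luc siRNA, and the sum was not called (log2 fold change -0.44, SE 0.198, edgeR adjusted p = 0.0876). Its transcript rows differed. Atg9a-205 had 30, 45 and 32 counts with Crebl2 siRNA, against 58, 70 and 48 with Luc siRNA, and tested singly it was lowered (log2 fold change -0.71, SE 0.217, edgeR adjusted p = 0.0148). Atg9a-208 had 9, 9 and 15 counts with Crebl2 siRNA and 4, 7 and 4 with Luc siRNA, too few to test.

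The conjugation enzymes showed the fewest calls relative to their number among the roles with a call. Of 9 tested, Atg4d was lowered, Atg10 was raised and 7 were not called, beside 38.9% called among all genes tested. Atg4d, a protease of the family that trims Atg8 proteins, had 33.8, 34.6 and 27.2 CPM with Crebl2 siRNA, against 38.7, 40.9 and 39.7 CPM with Luc siRNA (log2 fold change -0.32, SE 0.0805, edgeR adjusted p = 0.00471). Replicate 3 of the Crebl2 siRNA libraries was the lowest. Atg4b, the protease with the broadest activity on Atg8 proteins, averaged 153.6 ± 7.16 CPM with Crebl2 siRNA and 155.7 ± 4.71 CPM with Luc siRNA (SD, n = 3 each; log2 fold change -0.02, edgeR adjusted p = 0.804), and its sign turned with library size alone as the scaling (0.03). Exons of Atg4d and of Kri1, a gene on the other strand, share 1405 bases, and the strand setting is not stated in the sources used here.

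Atg10, the E2-like enzyme that joins Atg12 to Atg5, had 101, 78 and 108 counts with Crebl2 siRNA and 75, 58 and 72 with Luc siRNA. The lowest Crebl2 siRNA library was just above the highest Luc siRNA library (2.81 and 2.66 CPM), and the log2 fold change was 0.49 (SE 0.168, edgeR adjusted p = 0.0304). It was called in 10 of 15 alternatives, with adjusted p from 0.0128 to 0.179, and not by DESeq2 (0.062), against a 1.2-fold change (0.179) or without Crebl2 siRNA replicate 1 (0.0691), Crebl2 siRNA replicate 3 (0.109) or Luc siRNA replicate 2 (0.140). Atg3, the E2-like enzyme that loads Atg8 proteins on lipid, was the closest of the uncalled enzymes to a call. It had 65.6, 67.3 and 76.8 CPM with Crebl2 siRNA, all above the 63.6, 64.0 and 64.6 CPM with Luc siRNA (log2 fold change 0.13, SE 0.0629, edgeR adjusted p = 0.129). It was called with library size alone (0.17, adjusted p = 0.0393) and without Crebl2 siRNA replicate 1 (0.17, adjusted p = 0.0427), with alternatives from 0.0393 to 1.

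The conjugation partners Atg5 and Atg12 had log2 fold changes of -0.10 (SE 0.0573, edgeR adjusted p = 0.174) and -0.10 (SE 0.0607, edgeR adjusted p = 0.215). Without Crebl2 siRNA replicate 3 Atg12 was called, at -0.17 with an adjusted p of 0.0115 (alternatives from 0.0115 to 1). Atg4a (log2 fold change -0.11) and Atg4c (-0.05) were not called. Atg7, the E1-like enzyme of both conjugation routes, had 40 counts with Crebl2 siRNA and 53 with Luc siRNA, a count ratio of 0.755 with a 95% interval of 0.488 to 1.16, so a difference of that size was not detectable at this depth. Atg16l1, which positions the conjugation machinery, had 1 count with Crebl2 siRNA and 2 with Luc siRNA.

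In the Atg8 family, both LC3 genes and Gabarap were lowered and Gabarapl1 was not called. Lowered genes made up 3 of 5 tested, beside 20.1% of all genes tested. Map1lc3b, the gene of the standard autophagosome marker LC3B, had 153.4, 146.0 and 145.2 CPM with Crebl2 siRNA, against 196.8, 207.8 and 201.6 CPM with Luc siRNA. The Crebl2 siRNA libraries sat within a narrow band far below the others, at 73.3% of the Luc siRNA level (log2 fold change -0.45, SE 0.0493, edgeR adjusted p = 2.49e-06). Map1lc3a, which encodes LC3A, had 105.5, 93.3 and 87.3 CPM with Crebl2 siRNA and 123.5, 133.4 and 135.1 CPM with Luc siRNA (log2 fold change -0.45, SE 0.0657, edgeR adjusted p = 4.1e-05). Gabarap, of the subfamily linked to later steps, had 22.2, 22.0 and 22.5 CPM with Crebl2 siRNA and 26.0, 24.3 and 25.7 CPM with Luc siRNA (log2 fold change -0.19, SE 0.0682, edgeR adjusted p = 0.0402). The Gabarap call held in 5 of 15 alternatives, with adjusted p from 0.0364 to 1, and not without Crebl2 siRNA replicate 2 (0.139).

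Gabarapl2 had 15.9, 16.5 and 20.1 CPM with Crebl2 siRNA and 20.4, 20.6 and 20.2 CPM with Luc siRNA, and replicate 3 of the Crebl2 siRNA libraries lay only just below the Luc siRNA libraries (log2 fold change -0.22, SE 0.0882, edgeR adjusted p = 0.0608). It was called without that library (-0.33, adjusted p = 0.00255) and with no low-count filter (-0.22, adjusted p = 0.0485), with alternatives from 0.00255 to 0.904. Gabarapl1 had 410.7, 387.1 and 384.7 CPM with Crebl2 siRNA and 402.8, 430.2 and 409.1 CPM with Luc siRNA, ranges that overlap (log2 fold change -0.07, SE 0.0483, edgeR adjusted p = 0.268). Measured within libraries against Gabarapl1, the log2 count ratio of Map1lc3b did not overlap between groups, at -1.41 ± 0.009 with Crebl2 siRNA and -1.03 ± 0.015 with Luc siRNA (SD, n = 3 each; exact permutation p = 0.1). That of Map1lc3a was -2.05 ± 0.09 with Crebl2 siRNA and -1.67 ± 0.058 with Luc siRNA, again without overlap, whereas the ratios of Gabarap and Gabarapl2 to Gabarapl1 overlapped between groups (exact permutation p = 0.3 and 0.4). In all, 11 such ratios between paralogs were computed, and with 3 against 3 libraries none can pass 0.05.

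The cargo receptors among the 45 genes carried no call. Of 4 tested, 0 were called by edgeR, DESeq2 or limma-voom, and 1, Sqstm1, had an unadjusted p under 0.05 in each. By edgeR 38.9% of all genes tested were called, and 4 genes are too few to set the role apart from that share. Sqstm1, the ubiquitin-binding receptor p62 that is itself degraded by autophagy, had 42.6, 38.0 and 37.6 CPM with Crebl2 siRNA, all below the 43.1, 45.4 and 43.7 CPM with Luc siRNA (log2 fold change -0.16, SE 0.0646, edgeR adjusted p = 0.0589). It was called without Crebl2 siRNA replicate 1 (-0.22, adjusted p = 0.012; alternatives from 0.012 to 1), and rests on 150 countable bases. Tax1bp1, a receptor for ubiquitinated aggregates and the most heavily counted of the 45 genes, had 574.4, 576.5 and 633.4 CPM with Crebl2 siRNA and 584.9, 559.5 and 560.2 CPM with Luc siRNA (log2 fold change 0.07, SE 0.0504, edgeR adjusted p = 0.328). Those values overlap. Optn, a receptor for bacteria and damaged mitochondria, was at a log2 difference of -0.23 (SE 0.144, edgeR adjusted p = 0.226), and Nbr1, a partner of Sqstm1, had 102 counts with Crebl2 siRNA and 81 with Luc siRNA (count ratio 1.26, 95% interval 0.932 to 1.71; every Crebl2 siRNA library above every Luc siRNA library). Bnip3l, the mitophagy receptor Nix, had 0 counts in all libraries over 21 countable bases.

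For fusion with the lysosome, Vps11, a core HOPS subunit, was lowered. It had 100.1, 95.02 and 87.7 CPM with Crebl2 siRNA, against 104.2, 112.6 and 106.2 CPM with Luc siRNA (log2 fold change -0.19, SE 0.0584, edgeR adjusted p = 0.0156). The call was lost with library size alone (adjusted p = 0.0611) and without Crebl2 siRNA replicate 2 (0.0531) or Luc siRNA replicate 2 (0.0876) or against a 1.2-fold change (1), within a range of 0.00376 to 1 over alternatives. Vps18, the next core subunit, had 102.2, 105.0 and 93.5 CPM with Crebl2 siRNA and 104.6, 111.9 and 109.4 CPM with Luc siRNA, which overlap slightly (log2 fold change -0.12, SE 0.0563, edgeR adjusted p = 0.117). Stx17, the autophagosomal SNARE, averaged 27.3 ± 0.844 CPM with Crebl2 siRNA and 28.7 ± 0.601 CPM with Luc siRNA with no overlap (SD, n = 3 each; log2 fold change -0.07, edgeR adjusted p = 0.41).

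**Figure D3:**
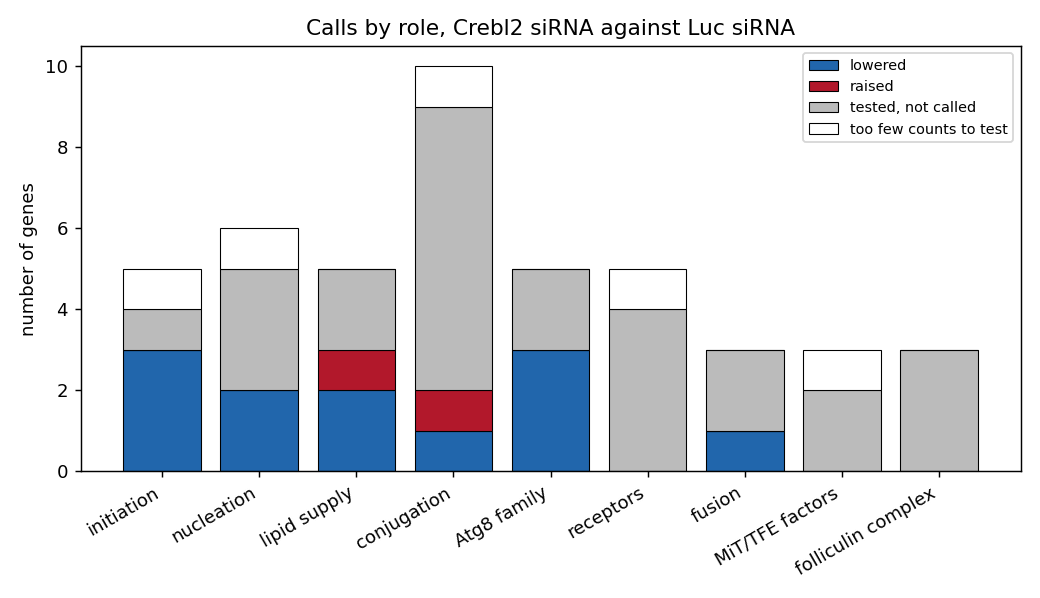
Number of autophagy genes lowered, raised, tested without a call and not tested in each role. Initiation (3 of 4 tested) and the Atg8 family (3 of 5) hold the most lowered genes for their size, and receptors, MiT/TFE factors and the folliculin complex hold no call. Among all genes tested, 20.1% were lowered and 18.8% raised, and the roles hold only 2 to 9 tested genes each.

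Ordered by role, the median log2 fold change of tested genes was -0.26 for lipid supply, -0.22 for initiation, -0.22 for the Atg8 family, -0.19 for nucleation, -0.12 for fusion, -0.10 for conjugation, -0.05 for receptors, -0.02 for the folliculin complex and 0.13 for the MiT/TFE factors. These medians rest on 2 to 9 genes and are a description, with no test between roles. Per library, the median log2 ratio of the 40 genes to their Luc siRNA mean was -0.09, -0.16 and -0.13 in Crebl2 siRNA replicates 1, 2 and 3.

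The MiT/TFE factors could hardly be read from these counts. Tfeb had 19, 13 and 7 counts with Crebl2 siRNA and 10, 5 and 15 with Luc siRNA, a count ratio of 1.30 with a 95% interval of 0.788 to 2.17 (log2 fold change 0.37, SE 0.441, edgeR adjusted p = 0.54). Mitf had 16, 8 and 15 counts with Crebl2 siRNA and 10, 14 and 18 with Luc siRNA, a ratio of 0.929 with an interval of 0.585 to 1.47 (log2 fold change -0.11, SE 0.366, edgeR adjusted p = 0.85). In both genes the groups overlap, and 0 of the 2 had an unadjusted p under 0.05 by edgeR, DESeq2 or limma-voom. Calls by edgeR covered 38.9% of all genes tested. Tfe3 had 1 count with Crebl2 siRNA and 3 with Luc siRNA over 153 countable bases in its main row, a ratio of 0.334 with an interval of 0.00636 to 4.16, so no difference was detectable at this depth.

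The folliculin complex was better counted and also carried no call in edgeR, DESeq2 or limma-voom, with 1 of 3 genes at an unadjusted p under 0.05 in each. With 38.9% of all genes tested called by edgeR, 3 genes without a call do not set the complex apart. Flcn, the GTPase-activating protein for RagC and RagD, had 95, 70 and 58 counts with Crebl2 siRNA and 74, 83 and 69 with Luc siRNA (log2 fold change -0.02, SE 0.182, edgeR adjusted p = 0.953), and its sign turned with library size alone as the scaling (0.03). Fnip1 had 95.6, 99.4 and 108.0 CPM with Crebl2 siRNA and 118.0, 103.9 and 101.7 CPM with Luc siRNA (log2 fold change -0.10, SE 0.0645, edgeR adjusted p = 0.265). Fnip2, its paralog, had 19.7, 24.1 and 21.4 CPM with Crebl2 siRNA and 20.1, 17.9 and 19.0 CPM with Luc siRNA (log2 fold change 0.19, SE 0.0852, edgeR adjusted p = 0.0848). Both pairs of ranges overlap, but the log2 ratio of Fnip2 to Fnip1 counts did not, at -2.22 ± 0.155 with Crebl2 siRNA and -2.50 ± 0.075 with Luc siRNA (SD, n = 3 each; exact permutation p = 0.1). Fnip2 was called with library size alone (0.24, adjusted p = 0.0385) and without Crebl2 siRNA replicate 1 (0.26, adjusted p = 0.021), with alternatives from 0.021 to 1.

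The genes differed in how many bases could be counted. HTSeq by default leaves out reads on bases that several features share, and the mode used for these counts is not stated in the sources. Of the 45 genes, 8 had under 200 countable bases in their main row, and 8 had under 100 counts over all libraries, 3 of them among the genes tested. The 5 genes left untested, Atg13, Ambra1, Atg16l1, Bnip3l and Tfe3, had 111, 2, 48, 21 and 153 such bases. A low count there is no measure of low expression. Exons of 12 of the 45 genes also share bases with another gene, on the opposite strand in most of them, among them the called genes Rb1cc1, Atg14, Uvrag, Atg2b, Atg4d and Map1lc3b, and reads of such partners cannot be told apart if the counting ignored strand. Mitf is the opposite case, with 2642 countable bases in its main row and 81 counts.

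**Figure D4:**
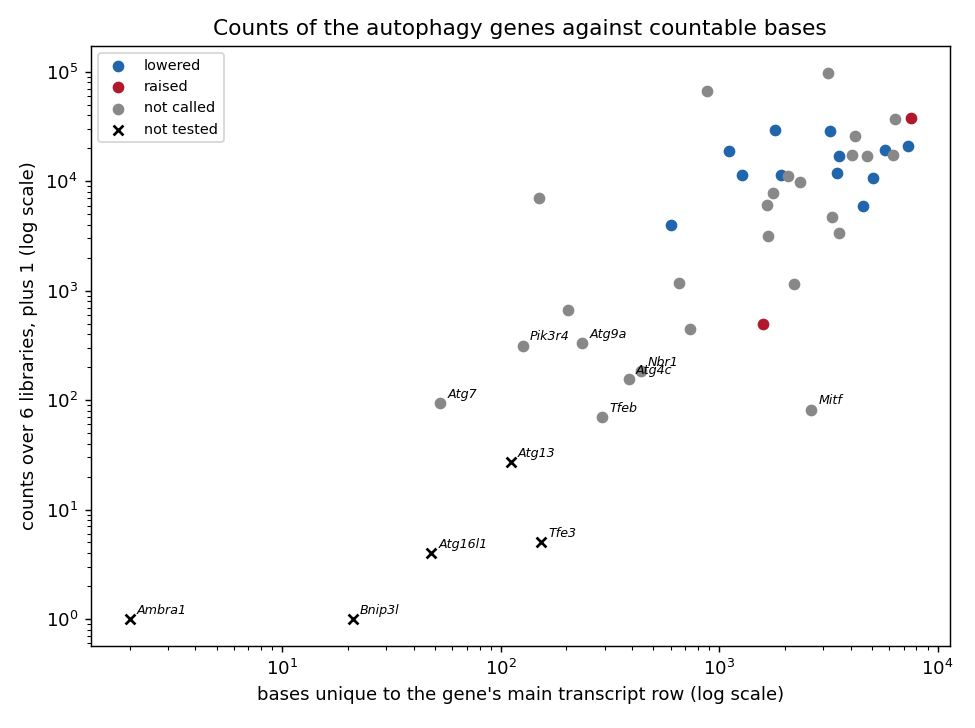
Counts over all 6 libraries plus 1 against the bases unique to the main transcript row for the 45 genes, both on log scales, with crosses for the 5 genes not tested. The untested genes have 2 to 153 unique bases, and Mitf combines 2642 bases with 81 counts.

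Levels can be compared between genes per countable kilobase for the 19 members with 1 transcript row and at least 90% of its bases countable. On that scale Tax1bp1 was highest, at 188 ± 10.6 CPM per kilobase with Crebl2 siRNA and 180 ± 4.59 with Luc siRNA (SD, n = 3 each). Map1lc3a followed at 85.7 ± 8.34 with Crebl2 siRNA and 117 ± 5.65 with Luc siRNA. Atg10 was lowest, at 2.17 ± 0.356 with Crebl2 siRNA and 1.55 ± 0.206 with Luc siRNA, next to Atg4a at 2.99 ± 0.109 with Crebl2 siRNA and 3.23 ± 0.493 with Luc siRNA. The steps at both ends of the order exceeded the SDs. The order of neighbours was not the same in both groups, since Atg2b averaged 32.3 ± 1.41 and Vps11 26.7 ± 1.76 with Crebl2 siRNA, against 27.6 ± 1.74 for Atg2b and 30.4 ± 1.24 for Vps11 with Luc siRNA.

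Other autophagy genes, from a list of 35 genes that excludes the members, also changed. Of 29 tested, 14 (48.3%) were lowered and 4 (13.8%) raised, beside 20.1% and 18.8% of all genes tested, with a median log2 fold change of -0.23. Without Crebl2 siRNA replicate 2, 13 were lowered and 3 raised. Those lowered with the smallest p were Calcoco1 (63.8 ± 2.99 CPM with Crebl2 siRNA and 101 ± 3.88 CPM with Luc siRNA, SD, n = 3 each; log2 fold change -0.67), a receptor for endoplasmic reticulum and Golgi, Sh3glb1 (-0.68), a membrane-curving partner of Uvrag, and Bnip3 (-0.89), a hypoxia-induced mitophagy receptor. Raised were Wdr45b (226.5 ± 11.9 CPM with Crebl2 siRNA and 164 ± 0.731 CPM with Luc siRNA, log2 fold change 0.47), the Wipi family member also called Wipi3, and the HOPS subunit Vps33a (0.31). Within the Wipi family, Wipi1 and Wipi2 were lowered and Wdr45b was raised. Clec16a, a mitophagy regulator, was also raised but rested on 39 counts with Crebl2 siRNA and 9 with Luc siRNA (ratio 4.34, 95% interval 2.07 to 10.2).

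Lysosomal genes of the CLEAR network, the group that Tfeb and Tfe3 activate, had 8 of 24 tested lowered and none raised by edgeR, DESeq2 or limma-voom, with 0 higher at an unadjusted p under 0.05 in each. The 33.3% called lay below the 38.9% called among all genes tested, of which 20.1% were lowered and 18.8% raised. The median log2 fold change was -0.09. The smallest p values belonged to the proton pump subunit Atp6v0e (log2 fold change -0.57, edgeR adjusted p = 1.37e-07), the sialidase Neu1 (-0.48, 1.31e-05) and the beta-galactosidase Glb1 (-0.31, 0.000206). Of 16 tested genes in a list of regulators of MiT/TFE factors and autophagy, 6 (37.5%) were lowered and 2 (12.5%) raised. The shares among all genes tested were 20.1% and 18.8%, and the median of the list was -0.14. The list and its lowered share include Gpnmb, which is a target of these factors. Without Crebl2 siRNA replicate 2, 5 were lowered and 2 raised. Gpnmb, a MiT/TFE target, fell to 68.4 ± 2.48 CPM with Crebl2 siRNA, against 119.5 ± 6.96 CPM with Luc siRNA (SD, n = 3 each; log2 fold change -0.81, edgeR adjusted p = 1.79e-08). RagC (Rragc, -0.36) and the calcineurin subunit Ppp3cb (-0.52), which acts on Tfeb, were lowered, whereas the AMPK subunit Prkaa2 (0.32) and Rptor (0.17), the substrate-binding subunit of mTORC1, were raised. The Rptor call was lost without Luc siRNA replicate 2 (edgeR adjusted p = 0.0721) or replicate 3 (0.0773), with alternatives from 0.00215 to 1.

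A 7-base word, GAAATGT, had been picked out in an earlier look at these same data, so its shares are a description and no independent test. It was carried in the annotated 3' UTR of 29.2% of all lowered, 16.5% of all uncalled and 11.9% of all raised genes searched, with median 3' UTR lengths of 1385, 995 and 986.5 bases. The word was present in 2 of the 12 lowered autophagy genes, Rb1cc1 and Atg14, in none of the 2 raised and in 6 of the 26 not called. Leaving out its carriers, an alternative added after the data had been seen, 10 autophagy genes were lowered and 2 raised. That follows from the counts just given, with no new fit, and the 6 uncalled carriers are left out as well. No siRNA sequence was at hand to compare with the word, and the part of such a word in the results was not tested.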

How the data were processed

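Total RNA libraries from a stranded kit were sequenced, per the labels. The authors deposited raw read counts per Ensembl transcript, 58611 rows in each of 6 libraries, without normalisation. Trim Galore, TopHat and HTSeq and the builds mm9 and GRCm38 are named in the submitters' processing notes, with no versions, roles or strand setting. Rows were joined to GENCODE M21 (GRCm38), where 58264 matched, and summed per gene; the 347 unmatched rows (no more than 0.0497% of any library) were not used. Genes were tested with edgeR 4.0.16 (R 4.3.3) by its quasi-likelihood test, two-sided, with TMM scaling, filterByExpr and Benjamini-Hochberg adjustment over all 11616 genes kept, and called at an adjusted p under 0.05. Each SE is the absolute log2 fold change over the root of its F statistic, and CPM used TMM-scaled library sizes. Countable bases are exonic bases of a row shared with no other deposited row on either strand. DESeq2 1.42.0 and limma 3.58.1 (voom) were alternatives. Intervals of count ratios are 95% exact binomial and cover counting error only. The edgeR, DESeq2 and voom steps were tested on simulated data. The genes changed there were given folds of at least 1.5, a size that among the called members only Wipi1 reached. That simulation therefore does not cover the smaller changes reported here.

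The members and lists were chosen with earlier results of these data known. The genes named are Crebl2, every called member, all MiT/TFE and folliculin genes, the uncalled member of each role with the smallest p and the 3 called genes of smallest p per direction in each other list. Other members, chosen after their values were seen, are named to account for all 45.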

Additional observations from a re-analysis of the deposited data

How the results depend on the processing

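Between the Crebl2 siRNA and Luc siRNA libraries, 11 to 15 members were called under DESeq2, limma-voom, DESeq2 size factors in edgeR, library size alone, no filter, the 1 CPM filter and transcript rows tested singly. With a 1.2-fold change as the null, 4 of the 40 tested members were called, 4 lowered and 0 raised. Of all 11616 genes tested 1626 were called, 709 raised and 917 lowered. The same test left 2 of 29 other autophagy genes raised and 7 lowered, and 3 of 24 CLEAR genes lowered. Of 16 genes in the regulator list it left 0 raised and 2 lowered. Under the 1.2-fold null fewer genes pass because a larger change is asked for. DESeq2 called 1 member raised. Library size alone called 4 raised, moved the median of all genes by 0.049 and the members' median to -0.06, and turned Becn1 (0.020), Atg4b (0.029) and Flcn (0.031), none of them called. It took the raised share of all calls to 58.8%, against 48.3% in the TMM fit, and that of the members to 30.8%, against 14.3%.

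Leaving out 1 library at a time gave 9 to 15 called members, 7 to 13 lowered and 1 to 3 raised, and 1 to 3 raised regulators. The lowest count came without Crebl2 siRNA replicate 2. Log2 fold changes of uncalled members turned in sign, with ranges of -0.104 to 0.011 for Atg2a, -0.056 to 0.008 for Atg4b, -0.171 to 0.089 for Atg4c, -0.316 to 0.151 for Mitf and -0.228 to 0.131 for Flcn. The cause was not tested. Counts were low for Tfeb, Mitf, Atg7 and Atg4c among the tested members, and lower still for the 5 members not tested.

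Deviations of same-numbered libraries correlated at -0.133, -0.0443 and -0.0847, so no effect shared by same-numbered libraries was visible. Whether the samples were handled in pairs is not stated in the labels, and these correlations cannot settle it. With the replicate block, 12 members were called, 10 lowered and 2 raised, and 3983 genes in all, with Atg101 and Gabarap no longer called.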
